A study of Mus musculus with 8 samples.

Results

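The adipogenic lineage genes described here are 10 named genes, of 34328 protein-coding and long noncoding genes considered: the transcription factors Pparg, Cebpa, Cebpb, Cebpd and Prdm16, the mature adipocyte genes Fabp4, Plin1, Adipoq and Lpl, and Pdgfra, the receptor that marks fibroadipogenic progenitors. They were chosen by name as a reading of whether an alternative lineage opened when LncMyod was knocked down, and all 10 passed the filter on low values. The locus of each gene was its body plus 10 kb on either side. The measures were the number of peaks there, the length they cover, and the fold enrichment of each peak over the background of its own library.

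The cells were satellite cells, the muscle stem cells that lie along the myofibre, from C57BL/6 mice, and open chromatin was mapped by ATAC-seq, in which a transposase cuts and tags accessible DNA. Groups of 2 libraries each were QSC (freshly isolated cells with no treatment), ASC (cells isolated 2.5 days after muscle injury, with no treatment), a differentiation culture given a control siRNA, and a differentiation culture given an siRNA against LncMyod. Per the protocols, harvest came 48 h after the siRNA against LncMyod, and no such time is stated for the control siRNA. The protocols describe the cultured cells as taken from hindlimb and grown in F10 with horse serum. LncMyod is a long noncoding RNA transcribed near the gene of the myogenic factor MyoD, and the siRNA arms thus differ from QSC and ASC in culture as well as in treatment.

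In adipogenesis, C/EBPβ and C/EBPδ act early and switch on PPARγ and C/EBPα, which then maintain each other and turn on the genes of lipid uptake and storage. In skeletal muscle the adipocytes that appear after injury are mostly traced to fibroadipogenic progenitors, while PRDM16 in myogenic precursors is known as a switch towards brown fat. Pparg has more than 1 promoter: an upstream one gives PPARγ1, and a promoter further inside the locus gives the fat-enriched form PPARγ2.

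The start sites of the members ranged from covered by a peak in every library to covered in none. Of the 32851 starts in the RefSeq promoter table, 38.8% lay in a peak of all 8 libraries and 48.7% in a peak of no library. Entries for 7 of the members were found, with 9 starts in all. The first Pparg start and those of Cebpa and Cebpb lay in a peak of all 8 libraries, and those of Plin1, Adipoq and Pdgfra in a peak of none. The Prdm16 start lay in a peak of 5 libraries, and the second Pparg start in a peak of 1. The third Pparg start lay in a peak of both QSC libraries and of no other library, a pattern seen at 0.594% of all starts. Cebpd, Fabp4 and Lpl had no entry.

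Promoter windows are shown because peaks over these starts differed between the Pparg promoters, and between Cebpa or Cebpb and Plin1 or Adipoq. Fabp4 and Lpl had no entry, so the adipocyte genes as a set cannot be compared with the regulators. Each runs from 250 bases before to 50 bases after the start, on the strand of the gene, from RefSeq on GRCm38.p6, and capitals mark every CpG dinucleotide. The windows shown are those whose start lay in a peak of at least 1 library, and that of Adipoq, added as an example of a start with no peak. They lie at chr6:115360894-115361193 (+), chr6:115362099-115362398 (+) and chr6:115421816-115422115 (+) for the first, the second and the third Pparg starts. The others are chr7:35119043-35119342 (+) for Cebpa, chr2:167688665-167688964 (+) for Cebpb, chr4:154636824-154637123 (-) for Prdm16 and chr16:23146286-23146585 (+) for Adipoq.
Pparg, the first start: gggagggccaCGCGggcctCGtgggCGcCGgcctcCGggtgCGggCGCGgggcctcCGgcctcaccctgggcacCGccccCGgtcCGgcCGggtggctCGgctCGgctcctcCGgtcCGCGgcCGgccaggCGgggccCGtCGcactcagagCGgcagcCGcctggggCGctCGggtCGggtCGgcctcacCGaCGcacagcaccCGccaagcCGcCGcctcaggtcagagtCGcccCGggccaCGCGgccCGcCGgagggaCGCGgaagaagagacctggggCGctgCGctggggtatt
Pparg, the second start: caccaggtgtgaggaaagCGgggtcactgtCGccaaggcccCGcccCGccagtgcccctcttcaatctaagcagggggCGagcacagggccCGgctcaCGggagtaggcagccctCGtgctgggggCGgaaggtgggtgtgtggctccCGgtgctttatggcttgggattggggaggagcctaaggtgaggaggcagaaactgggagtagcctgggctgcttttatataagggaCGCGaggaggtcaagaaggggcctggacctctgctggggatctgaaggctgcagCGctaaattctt
Pparg, the third start: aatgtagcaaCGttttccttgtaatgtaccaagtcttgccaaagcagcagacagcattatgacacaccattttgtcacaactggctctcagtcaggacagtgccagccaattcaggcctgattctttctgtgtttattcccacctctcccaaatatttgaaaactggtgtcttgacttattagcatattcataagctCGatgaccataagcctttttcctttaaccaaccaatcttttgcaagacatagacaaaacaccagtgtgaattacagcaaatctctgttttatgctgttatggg
Cebpa: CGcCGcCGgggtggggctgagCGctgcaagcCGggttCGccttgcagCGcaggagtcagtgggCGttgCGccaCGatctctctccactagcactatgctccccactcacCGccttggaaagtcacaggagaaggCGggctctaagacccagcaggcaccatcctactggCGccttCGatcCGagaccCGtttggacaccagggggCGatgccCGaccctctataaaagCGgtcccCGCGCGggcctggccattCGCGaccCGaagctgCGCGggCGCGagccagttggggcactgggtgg
Cebpb: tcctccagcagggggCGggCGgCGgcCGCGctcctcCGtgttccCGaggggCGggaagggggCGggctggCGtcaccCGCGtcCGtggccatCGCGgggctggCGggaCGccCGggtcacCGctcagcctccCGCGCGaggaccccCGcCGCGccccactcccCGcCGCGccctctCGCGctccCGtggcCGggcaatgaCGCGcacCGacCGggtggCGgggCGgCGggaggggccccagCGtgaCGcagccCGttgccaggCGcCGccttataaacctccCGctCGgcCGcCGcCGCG
Prdm16: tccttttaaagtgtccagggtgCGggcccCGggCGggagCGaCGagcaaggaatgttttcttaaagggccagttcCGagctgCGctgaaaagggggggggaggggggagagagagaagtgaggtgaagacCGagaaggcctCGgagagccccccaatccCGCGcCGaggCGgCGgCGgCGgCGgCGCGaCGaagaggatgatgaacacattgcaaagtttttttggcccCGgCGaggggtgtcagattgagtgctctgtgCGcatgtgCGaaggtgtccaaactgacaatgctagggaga
Adipoq: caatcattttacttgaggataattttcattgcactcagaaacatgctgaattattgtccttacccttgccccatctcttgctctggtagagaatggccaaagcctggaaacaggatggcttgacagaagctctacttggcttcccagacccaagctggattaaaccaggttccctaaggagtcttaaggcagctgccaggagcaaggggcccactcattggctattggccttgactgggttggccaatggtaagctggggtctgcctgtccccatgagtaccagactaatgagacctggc

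The first Pparg window was 80.3% G or C and held 44 CpGs, and the Cebpb window was 80.7% G or C and held 50. The Cebpa window held 29 CpGs and that of Prdm16 24. The second Pparg window held 13 CpGs. The third Pparg window was 40.3% G or C with 2 CpGs. In CpG count it was close to Plin1 with 2, Pdgfra with 5 and Adipoq with 0, whose windows were 55.7%, 51% and 50% G or C. The median over all promoter windows was 52.7% G or C and 7 CpGs. Among all starts whose window held 15 or more CpGs, 88.1% lay in a peak of all 8 libraries, against 2.97% of starts with 5 or fewer. Of the 4 member starts with 15 or more CpGs, 3 lay in a peak of all 8 libraries and that of Prdm16 in 5. Only the third Pparg start combined few CpGs with a peak in any library among these 9 starts.

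**Figure D1:**
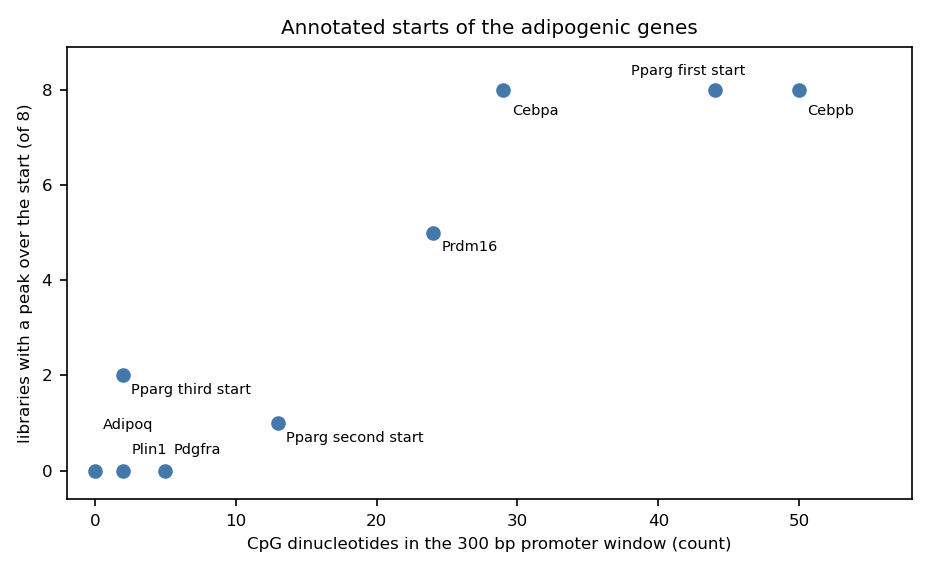
CpG dinucleotides in the promoter window of each annotated start (x axis, count in 300 bp) against the number of libraries, of 8, with a peak over the start (y axis, count); each point is 1 of the 9 starts of 7 genes. Cebpa, Cebpb and the first Pparg start sit at 8 libraries with 29 or more CpGs, and the third Pparg start sits at 2 libraries with 2 CpGs.

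Motifs of 6 to 8 bases were searched on both strands of the 9 windows, and a match is a description only. The nuclear receptor half-site AGGTCA, found in 16.3% of all promoter windows, matched in the first and second Pparg windows. The E-box CACCTG, found in 20.2%, matched in the second Pparg window. The E-box CAGCTG, found in 16.3%, matched in the windows of Plin1 and Adipoq. The C/EBP palindrome TTGCGCAA (0.183%) and the AP-1 motif TGANTCA (7.81%) matched in none of the 9 windows. No match overlapped a match of another motif in these windows.

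The libraries differed in list length, which bears on every value below. They held 59666 to 95449 peaks covering 42.4 to 64 Mb, the longest list being that of the first LncMyod siRNA library. Peaks reaching a −log10 q of 5 made up 50.3% of the list in the second LncMyod siRNA library, the lowest share, and 69.9% in the first control siRNA library, the highest. The median fold of a peak was 4.32 and 4.01 in the control siRNA libraries and 3.45 and 3.31 in the LncMyod siRNA libraries. Covered length was therefore scaled to the mean total over libraries and is given as scaled kb. The files carry no read counts, so depth is unknown, and the lack of a peak does not show closed chromatin. Satellite cell and myogenic markers (Pax7, Myf5, Myod1 and 5 others) covered 35.7 to 46.9 scaled kb in every library. All 5 of these genes with an entry in the promoter table had at least 1 start in a peak of all 8. The summed length over 4 leukocyte markers was 0.253 and 0 kb in QSC, 2.70 and 2.55 kb in ASC, 5.33 and 5.95 kb with control siRNA, and 4.54 and 5.44 kb with LncMyod siRNA. Of the 3 leukocyte genes with an entry, 0 had a start in a peak of any library. The 10 fibroadipogenic progenitor markers covered 14.6 to 23.9 kb, and the 4 endothelial markers 6.46 to 10.7 kb. In cells measured in bulk, fewer cells with an open locus and a less open locus in each cell cannot be told apart.

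Under LncMyod knockdown no adipogenic lineage gene passed the test. Compared with control siRNA, 0 of the 10 loci gained and 0 lost covered length at a limma Benjamini-Hochberg adjusted p under 0.05, and 0 of 10 had an unadjusted p under 0.05. Over all 27938 genes tested, 0.0215% were called higher and 0% lower, and 9.81% had an unadjusted p under 0.05. The members' median log2 change was -0.06, beside -0.05 over all genes tested. Peaks held by both LncMyod siRNA libraries and neither control siRNA library numbered 1 of the 102 regions at these loci, beside 2.2% of all 141301 regions. In the other direction 2 of the 102 were held by both control siRNA libraries alone of these 4, beside 1.42% of all regions. With 2 libraries against 2, an exact permutation test cannot give a p under 0.33, so region counts have no test. Statements below that 2 libraries lay above or below 2 others are likewise descriptions only. How often groups stood apart in this way over all genes was not counted. With 1 library standing for its group, the member regions specific to either side numbered 22 without LncMyod siRNA replicate 1, 17 without its replicate 2, 8 without control siRNA replicate 1 and 6 without its replicate 2, in place of 3. The shares over all regions were higher too: without LncMyod siRNA replicate 1 they were 10.1% specific to LncMyod siRNA and 8.47% to control siRNA (13 and 9 of the 102), and without its replicate 2 they were 11.1% and 1.83% (15 and 2). Without control siRNA replicate 1 they were 3.43% and 4.1% (2 and 6), and without its replicate 2 they were 3.29% and 4.38% (1 and 5).

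**Figure D2:**
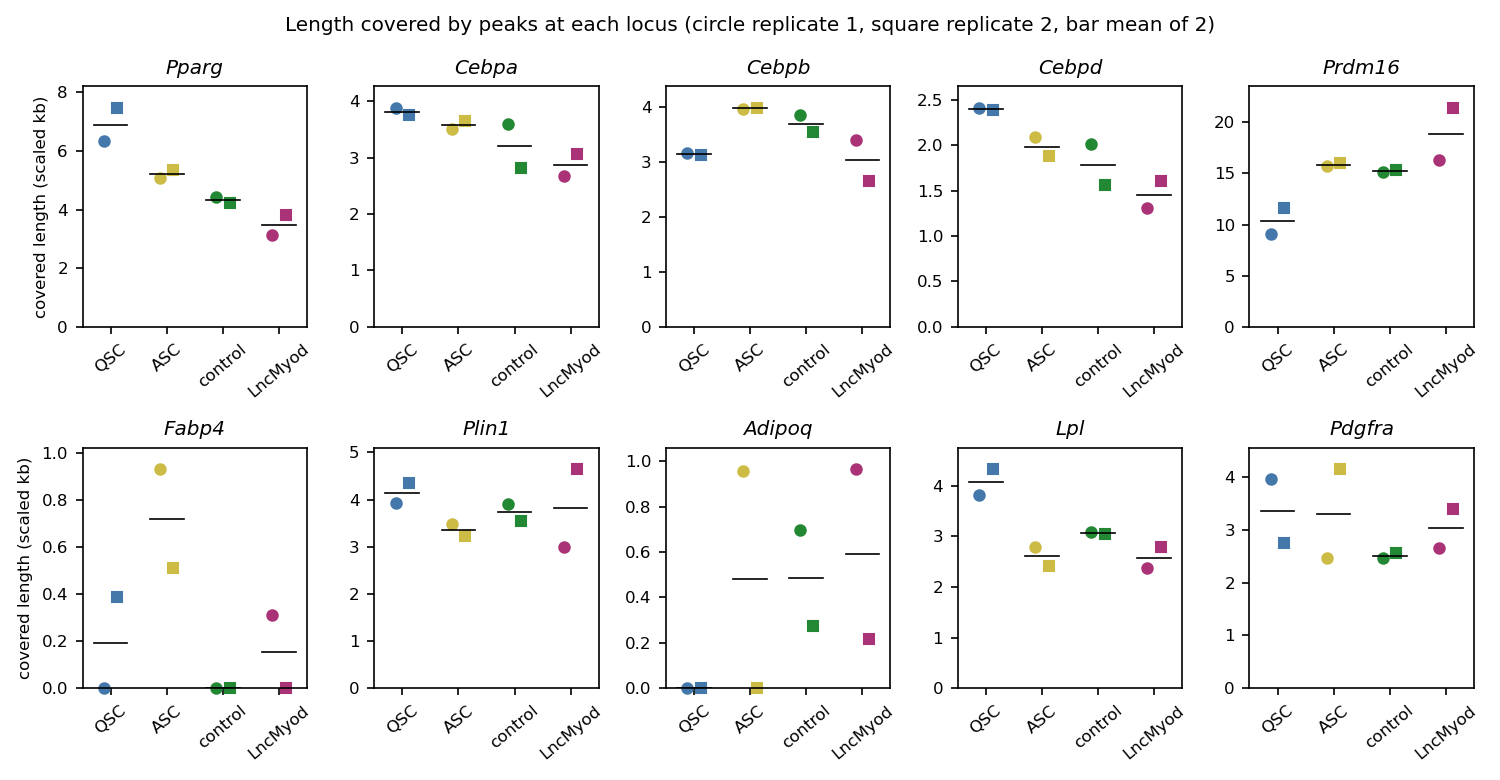
Scaled length covered by peaks (y axis, kb, from 0) at each of the 10 loci by group (x axis); circles are replicate 1, squares replicate 2, and the bar is the mean of 2. Pparg was highest in the QSC libraries at 6.33 and 7.47 kb, Prdm16 was lowest there at 9.03 and 11.6 kb, and Fabp4 and Adipoq stayed under 1 kb.

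Pparg encodes the nuclear receptor that directs adipocyte differentiation. Its locus (gene at chr6:115360879-115490404) held 6.33 and 7.47 scaled kb of peaks in QSC, 5.09 and 5.34 in ASC, 4.43 and 4.24 with control siRNA, and 3.15 and 3.83 with LncMyod siRNA. Both knockdown libraries lay below both controls, and all 4 groups followed each other without overlap, QSC being highest. How often such an order occurs over all genes was not counted. The log2 change with knockdown was -0.28 (SE 0.13, 95% interval -0.59 to 0.02, limma adjusted p = 0.559), which did not pass the test. With lists of equal length it was 0.02 and with peaks of −log10 q of at least 5 it was 0.17, so its direction turned. The number of peaks was 8 and 8 in QSC, 5 and 5 in ASC, 6 and 6 with control siRNA, and 5 and 4 with LncMyod siRNA.

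The third Pparg start, at chr6:115422066, was covered in QSC alone. The region over it, chr6:115421098-115422205, was held by the QSC libraries with folds of 5.59 and 4.98, at the 78.9 and 74.0 percentile of peaks in their own lists, and by no other library. Both peaks stayed when only those with a −log10 q of at least 5 were kept and when lists were cut to equal length. Of the 9 regions at the locus, 3 were held by both QSC libraries alone. The others were chr6:115424450-115424840, which lies 2384 bp past that start with folds of 3.97 and 2.75, and chr6:115464693-115464952 with folds of 3.08 and 2.52. The first start, by contrast, lay in a peak of every library with folds from 4.35 to 5.73. At a second start, 115362349, only the second QSC library had a peak reaching it.

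A region inside the Pparg gene at chr6:115462764-115463573, chosen after its values were seen, had the highest folds at any member locus and was held by all 8 libraries. Its folds were 8.99 and 7.55 in QSC, 11.4 and 7.46 in ASC, 12.9 and 11.6 with control siRNA, and 11.5 and 10.1 with LncMyod siRNA. These peaks stood at the 95.9 percentile of their own list or above in every library. A region held by both control siRNA libraries and no other, chr6:115439759-115439993, lay 17693 bp past the third start with folds of 3.20 and 3.17. The region inside the gene at chr6:115479971-115480793 was missing only in the second LncMyod siRNA library, and its folds in the others ran from 2.78 to 5.44. This region was likewise chosen after its values were seen.

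**Figure D3:**
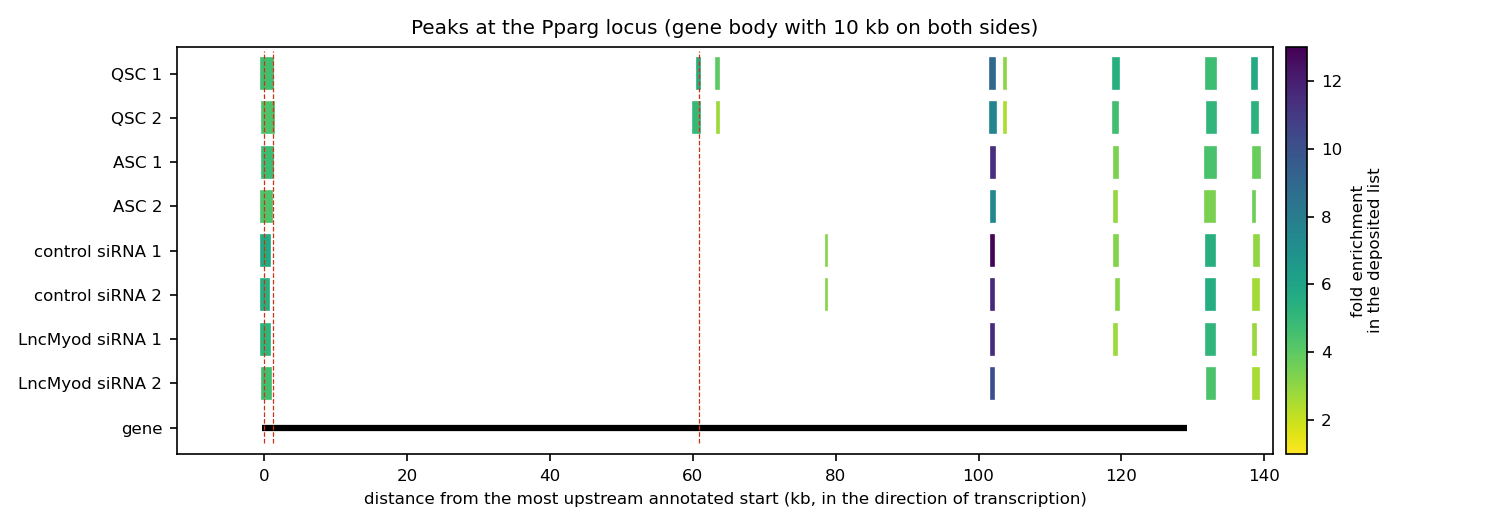
Peaks of each library at the Pparg locus (rows) by distance from the most upstream start (x axis, kb), coloured by the deposited fold; dashed lines mark the 3 annotated starts and the black bar the gene. Only the 2 QSC rows have a peak at the third start, while a peak of high fold inside the gene and one at the first start are in all 8 rows.

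Cebpb and Cebpd encode the early C/EBP factors, and neither passed the test in the knockdown. At Cebpb (chr2:167688915-167690432) the covered length was 3.17 and 3.14 kb in QSC, 3.97 and 3.99 in ASC, 3.86 and 3.55 with control siRNA, and 3.41 and 2.66 with LncMyod siRNA. After scaling, both knockdown libraries were below both controls, with a log2 change of -0.26 (SE 0.13, 95% interval -0.57 to 0.05, limma adjusted p = 0.614). Before scaling they overlapped, at 3948 and 3621 bp with control siRNA and 4254 and 2582 bp with LncMyod siRNA. The log2 change was -0.16 with lists of equal length and -0.01 with peaks of −log10 q of at least 5. At Cebpd (chr16:15887286-15889545) the values were 2.41 and 2.39 kb in QSC, 2.09 and 1.88 in ASC, 2.01 and 1.56 with control siRNA, and 1.31 and 1.60 with LncMyod siRNA. Control and knockdown overlapped there, and the log2 change was -0.22 (SE 0.15, 95% interval -0.59 to 0.14, limma adjusted p = 0.722). QSC held a peak that no other group did at chr16:15895869-15896683, 6324 bp from Cebpd and within Spidr, with folds of 4.12 and 3.78. The region over the gene's lower end, chr16:15886610-15888712, was held by all 8 libraries with folds between 4.26 and 4.76.

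The flanks of Cebpb held the 1 region at any member locus with a peak in both knockdown libraries and neither control. It lies 5750 bp downstream of the gene at chr2:167696182-167696731, inside the noncoding gene A530013C23Rik, with folds of 1.98 and 2.11. The 2 peaks overlap only in part, running from 167696325 to 167696731 and from 167696182 to 167696429, and their −log10 q was 1.33 and 1.41. In the stricter lists the region was absent, and no ASC or QSC library held the region. Further downstream, chr2:167699855-167700214 was held by both control siRNA libraries alone, with folds of 2.86 and 2.75. Upstream, 2037 bp before the gene, chr2:167686412-167686878 was held by the QSC libraries alone with folds of 3.11 and 2.69. The start itself lay in a peak of all 8 libraries with folds of 2.91 to 3.71.

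Cebpa encodes the factor that sustains PPARγ in maturing adipocytes. Its locus (chr7:35119293-35121928) held 3.88 and 3.75 kb in QSC, 3.51 and 3.65 in ASC, 3.60 and 2.81 with control siRNA, and 2.68 and 3.07 with LncMyod siRNA. Control and knockdown overlapped, and the log2 change was -0.13 (SE 0.14, 95% interval -0.45 to 0.20, limma adjusted p = 0.84). The locus held few regions: a peak over the start in all 8 libraries with folds of 3.12 to 3.57, and a region at chr7:35126905-35128183, 4977 bp past the gene, in all 8 with folds of 3.07 to 5.69. A further region was held by the first control siRNA library alone.

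Prdm16, the brown fat regulator, was the member with the longest gene and the most regions, 55 of the 102. Its locus (chr4:154316122-154637360) held 9.03 and 11.6 kb in QSC, 15.7 and 16.0 in ASC, 15.1 and 15.3 with control siRNA, and 16.3 and 21.4 with LncMyod siRNA. QSC was below every other library, and both knockdown libraries were above both controls. The log2 change with knockdown was 0.29 (SE 0.16, 95% interval -0.08 to 0.66, limma adjusted p = 0.642), which did not pass the test. It was 0.48 without LncMyod siRNA replicate 1 and 0.10 without its replicate 2. It was -0.05 with lists of equal length and -0.23 with peaks of −log10 q of at least 5, so its direction turned. The number of peaks was 14 and 16 in QSC, 18 and 17 in ASC, 24 and 22 with control siRNA, and 32 and 27 with LncMyod siRNA.

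Many of the Prdm16 peaks under knockdown were found in 1 library only. Of the regions the LncMyod siRNA libraries held at the locus, 9 of 32 and 7 of 27 were in no other library, against 0 to 2 in each of the other 6. In the whole lists the share of such regions was 9.6% and 12.5% in the LncMyod siRNA libraries and 3.22% to 5.34% in the others. The knockdown lists were thus richer in them as a whole, and the Prdm16 counts in both knockdown libraries stood above these shares. The folds of these 16 Prdm16 regions ran from 2.03 to 2.57. The mean fold over Prdm16 peaks was 3.84 and 3.76 with control siRNA and 3.05 and 2.64 with LncMyod siRNA. No region at Prdm16 was held by both knockdown libraries and neither control.

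At the Prdm16 start, chr4:154636873 on the minus strand, the covering region chr4:154635275-154637724 was held by all 8 libraries with folds of 2.83 to 4.12. The peaks of the second control siRNA library and of both LncMyod siRNA libraries ended at 154636836, 154636747 and 154636781, which is short of the start on the gene's side. The peaks of the other 5 libraries spanned it. Within the gene, chr4:154328064-154329692 and chr4:154514006-154515862 were held by all 6 libraries outside QSC. Folds at the first were 3.19 and 2.75 in ASC, 5.30 and 4.02 with control siRNA, and 3.24 and 2.92 with LncMyod siRNA. Folds at the other ran from 2.95 to 4.14. In the opposite direction, chr4:154454674-154455422 was held by both QSC libraries with folds of 3.84 and 4.0, by the first ASC library with 2.48, and by no cultured library.

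**Figure D4:**
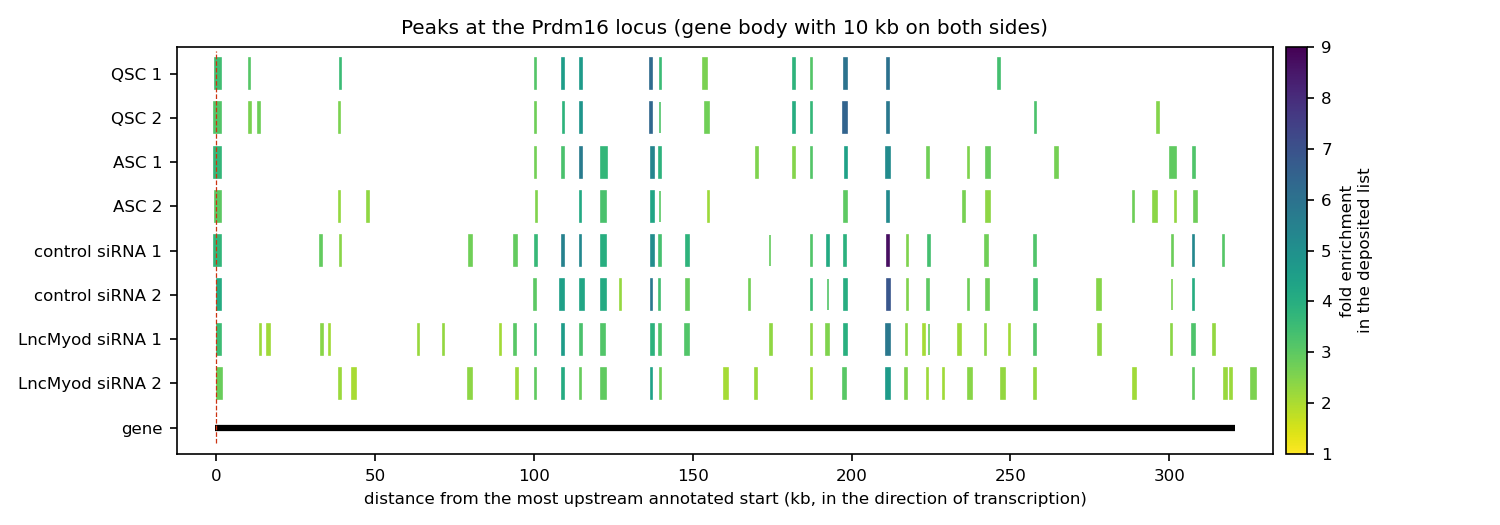
Peaks of each library at the Prdm16 locus (rows) by distance from the start in the direction of transcription (x axis, kb), coloured by the deposited fold; the dashed line marks the start and the black bar the gene. The LncMyod siRNA rows hold 32 and 27 peaks, many of low fold and at positions where no other row has one.

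Fabp4 and Adipoq, which encode the fatty acid carrier and the hormone most typical of mature fat cells, were the least covered members. At Fabp4 (chr3:10204342-10208616) the values were 0 and 0.388 kb in QSC, 0.930 and 0.511 in ASC, 0 and 0 with control siRNA, and 0.312 and 0 with LncMyod siRNA. No peak overlapped the Fabp4 gene body in any library: its 2 regions lie 3168 and 4847 bp beyond its higher end. The first of them, chr3:10211784-10212198, was held by both ASC libraries alone, with folds of 3.81 and 3.04. At Adipoq (chr16:23146536-23157968) the values were 0 and 0 kb in QSC, 0.959 and 0 in ASC, 0.698 and 0.276 with control siRNA, and 0.964 and 0.217 with LncMyod siRNA. Knockdown and control overlapped at both loci. The log2 change was 0.35 at Fabp4 (SE 0.36, 95% interval -0.49 to 1.19, limma adjusted p = 0.828), where both controls were listed at 0 and the value is set by the pseudocount of 500 bp. At Adipoq it was 0.09 (SE 0.55, 95% interval -1.20 to 1.38, limma adjusted p = 0.982), an interval wide enough to hold a change of more than 1 in either direction.

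The Adipoq gene body itself held a peak in 1 library. That peak, 801 bp long and 457 bp past the start, was in the first LncMyod siRNA list with a fold of 2.40, at the 12.7 percentile of its list. The rest of the covered length there came from a region at the outer edge of the flank, 9042 bp before the gene, which reached into the locus in 5 libraries. The second LncMyod siRNA library had that edge region only.

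Plin1 encodes the coat protein of the lipid droplet. Its locus (chr7:79721164-79732904) held 3.92 and 4.35 kb in QSC, 3.49 and 3.23 in ASC, 3.91 and 3.55 with control siRNA, and 3.00 and 4.64 with LncMyod siRNA. The knockdown libraries stood on either side of the controls, and the log2 change was 0.01 (SE 0.19, 95% interval -0.43 to 0.44, limma adjusted p = 1). Of its 7 regions, 4 were held by all 8 libraries, and 2 of these overlap neighbouring genes: chr7:79714859-79716232 lies in Kif7, and chr7:79742601-79743439 overlaps Pex11a and Wdr93. The region at chr7:79721234-79722016 lies inside Plin1 near its far end, 10760 bp past the start, with folds of 3.98 to 6.33.

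Lpl encodes the lipase that releases fatty acids from circulating lipoproteins, an enzyme also made by muscle. Its locus (chr8:68880555-68906932) held 3.81 and 4.32 kb in QSC, 2.79 and 2.42 in ASC, 3.08 and 3.04 with control siRNA, and 2.37 and 2.78 with LncMyod siRNA. QSC was above every other library, and both knockdown libraries were below both controls. The log2 change with knockdown was -0.22 (SE 0.13, 95% interval -0.53 to 0.09, limma adjusted p = 0.68). It was 0.03 with lists of equal length and 0.12 with peaks of −log10 q of at least 5, so its direction turned.

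Several Lpl regions were weak or missing in ASC, but not the one over the lower end of the gene. That region, chr8:68880309-68882038, was held by all 8 libraries. Its folds were 3.48 and 3.09 in QSC and 3.89 and 3.58 in ASC. With control siRNA they were 3.94 and 3.8, and with LncMyod siRNA 3.73 and 3.34. The region chr8:68914759-68915417, 7827 bp beyond the higher end of the gene, was held by all 6 libraries outside ASC. Its folds were 3.59 and 3.34 in QSC, 5.39 and 3.30 with control siRNA, and 5.15 and 4.08 with LncMyod siRNA. Closer to that end, 1265 bp from it, chr8:68908197-68909154 was held by all 8, with folds of 7.70 and 5.55 in QSC, 3.23 and 3.26 in ASC, 7.24 and 5.93 with control siRNA, and 5.46 and 3.83 with LncMyod siRNA. The ASC folds were the lowest there. A region inside the gene, chr8:68883088-68883504, was held by the QSC libraries alone with folds of 2.93 and 3.24. Folds refer to the background of each library, so they were not tested between libraries.

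Pdgfra encodes the platelet-derived growth factor receptor used to identify fibroadipogenic progenitors. Its locus (chr5:75151322-75198206) held 3.96 and 2.75 kb in QSC, 2.47 and 4.14 in ASC, 2.46 and 2.55 with control siRNA, and 2.66 and 3.40 with LncMyod siRNA. The replicates of QSC and of ASC differed from each other by more than control and knockdown did. Both knockdown libraries were above both controls, and the log2 change was 0.23 (SE 0.25, 95% interval -0.36 to 0.81, limma adjusted p = 0.844). Its annotated start, 75152251, lay in a peak of no library, but chr5:75153974-75157399, which begins 1723 bp past the start, was held by all 8 with folds of 2.97 to 4.19. The region chr5:75142986-75144354, 6968 bp outside the gene and overlapping Gm19583, was held by all 8. Its folds were 7.21 and 5.97 in QSC, 3.53 and 3.51 in ASC, 4.92 and 3.48 with control siRNA, and 3.94 and 3.28 with LncMyod siRNA.

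**Figure D5:**
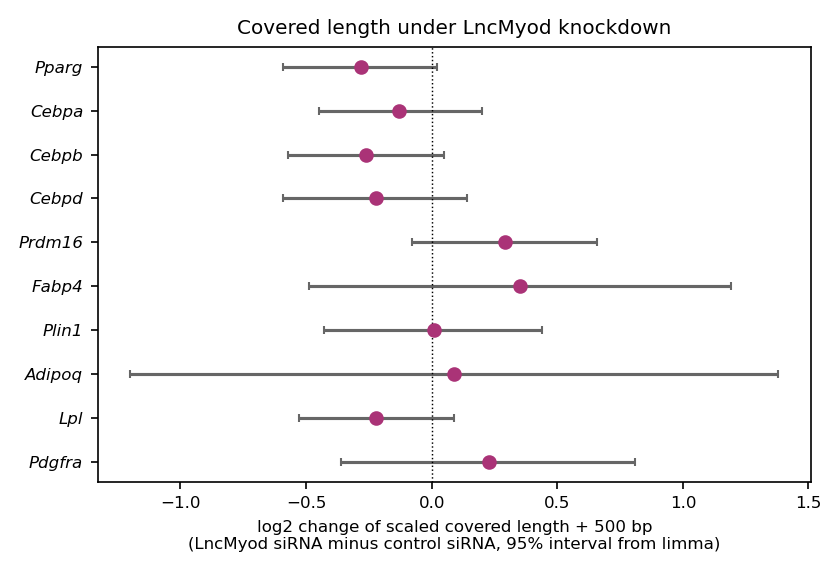
Log2 change of scaled covered length plus 500 bp, LncMyod siRNA minus control siRNA (x axis), for each of the 10 genes (y axis); points are the limma estimates from 2 libraries per group and bars the 95% intervals. Every interval includes 0, and those of Adipoq, at -1.20 to 1.38, and Fabp4, at -0.49 to 1.19, are the widest.

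Between QSC and ASC, which asks how these loci differ between freshly isolated and injury-activated cells, 2 members passed the test. Prdm16 gained covered length, from 10.3 ± 1.81 kb in QSC to 15.9 ± 0.187 kb in ASC (SD, n = 2 each). The log2 change was 0.61 (SE 0.16, 95% interval 0.24 to 0.98, limma adjusted p = 0.0491). Lpl lost covered length, from 4.07 ± 0.358 kb to 2.61 ± 0.263 kb (SD, n = 2 each), a log2 change of -0.56 (SE 0.13, 95% interval -0.86 to -0.25, limma adjusted p = 0.0374). These 1 higher and 1 lower of 10 stand beside 7.56% called higher and 5.25% called lower over all genes. An unadjusted p under 0.05 was found for 4 of the 10, beside 28.1% of all genes, the others being Pparg (limma adjusted p = 0.113) and Fabp4 (limma adjusted p = 0.174).

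Both calls lay close to the threshold and did not hold in most of the other analyses. The Prdm16 call was lost in 10 of 13 alternatives, with limma adjusted p from 0.0506 to 0.586, and the Lpl call in 10 of 13, with limma adjusted p from 0.0505 to 0.179. Leaving out any 1 of the 4 QSC and ASC libraries ended both calls. For Prdm16 the limma adjusted p was 0.249 and 0.095 without QSC replicate 1 and 2, and 0.123 and 0.164 without ASC replicate 1 and 2. For Lpl it was 0.0981 and 0.179 without QSC replicate 1 and 2, and 0.0542 and 0.137 without ASC replicate 1 and 2. The direction of both stayed in all 13. The Prdm16 log2 change was 0.24 with peaks of −log10 q of at least 5 and 0.62 with lists of equal length. The mean fold over Prdm16 peaks was 4.11 and 3.92 in QSC and 3.56 and 3.06 in ASC. Leukocyte marker loci moved with the same contrast, where 7.56% of all genes were called higher. Of the 4, 3 (Ptprc, Itgam and Cd3e) gained covered length in ASC, at log2 changes of 1.00, 0.86 and 1.69 (limma adjusted p = 0.0416, 0.0397 and 0.0066). Those calls were lost in 8 of 12, 12 of 13 and 3 of 13 alternatives, and their part in the Prdm16 and Lpl results was not tested.

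Regions held by only 1 of the QSC and ASC groups stood near their share over all regions. Of the 102, 5 were held by both ASC and neither QSC library, beside 5.99% of all regions, and 8 by both QSC and neither ASC library, beside 8.54%. Held by QSC alone of the 4 groups were 7 (5.18% of all regions), and these lay at Pparg (3) and at Cebpb, Cebpd, Prdm16 and Lpl (1 each). Held by ASC alone was 1, at Fabp4 (0.856%). Held by control siRNA alone were 2 (0.832%), at Pparg and Cebpb, and by LncMyod siRNA alone 1, at Cebpb (1.26%). All 8 libraries held 25 of the 102, beside 25% of all regions, and 33 were found in 1 library, beside 26%. Of those 33, 23 were at Prdm16 and 4 at Pdgfra.

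Between ASC and the cells cultured with control siRNA, a contrast that also holds the step from tissue to culture, no member passed the test. Of the 10, 0 were called higher and 0 lower by limma, where 2.28% of all genes were called higher and 1.72% lower, and 1 of 10 had an unadjusted p under 0.05, beside 22.3%. That member was Fabp4 (limma adjusted p = 0.0975), with both control siRNA libraries listed at 0. Without scaling, the calls over all genes were 283 higher and 85 lower in place of 636 and 480. With equal list lengths they were 1438 higher and 1541 lower, so the balance turned. Without scaling the median of all genes moved from -0.08 to 0.04. Of the 102 regions, 8 were held by both control siRNA libraries and neither ASC library, beside 11.7% of all regions, and 2 by both ASC libraries and neither control siRNA library, beside 2.64%. The 3 comparisons share groups: ASC stands in the last 2 and control siRNA in the knockdown comparison and the last one.

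The wider adipogenic pathway was read from further gene lists. In the knockdown, 0 of 18 transcriptional regulators of adipogenesis, 0 of 22 genes of lipid uptake, synthesis and storage, 0 of 9 adipokines and receptors and 0 of 12 brown fat genes were called by limma. Over all genes tested 0.0215% were called higher and 0% lower, so the lack of a call in lists this short says little. At an unadjusted p under 0.05 the counts were 2, 1, 1 and 2, beside 9.81% of all genes. Their median log2 changes were -0.03, -0.03, 0.06 and 0.01. Markers of satellite cells (0 of 8), fibroadipogenic progenitors (0 of 10), endothelium (0 of 4) and leukocytes (0 of 4) were not called either, and at an unadjusted p under 0.05 the counts were 0, 0, 0 and 1.

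Single genes of these lists passed in the other contrasts. Rxra, the partner with which PPARγ binds DNA, gained covered length with control siRNA over ASC. It held 5.85 and 7.52 kb in ASC and 11.1 and 12.5 kb with control siRNA, a log2 change of 0.78 (SE 0.13, limma adjusted p = 0.0304), the only call in that contrast among the 4 pathway lists. Of the leukocyte markers in the same contrast, 4 of 4 had positive log2 changes, beside 40.4% of all genes, with a median of 0.83, beside -0.08. An unadjusted p under 0.05 was found for 3 of 4, beside 22.3%. Where 2.28% of all genes were called higher, 1 of the 4 was. That was Itgam, at 0.533 and 0.297 kb in ASC and 1.31 and 1.3 kb with control siRNA, a log2 change of 0.99 (SE 0.21, limma adjusted p = 0.0493). Its call was lost in 10 of 13 alternatives, and the part of these markers in the Rxra result was not tested. Insr, the insulin receptor, held 4.74 and 4.46 kb in QSC and 2.71 and 3.42 kb in ASC, a log2 change of -0.52 (SE 0.12, limma adjusted p = 0.038). Lep, the gene of leptin, held 2.35 and 1.90 kb in QSC and 1.12 and 0.396 kb in ASC, a log2 change of -1.12 (SE 0.29, limma adjusted p = 0.0486). These were the 2 calls of the pathway lists between QSC and ASC. The calls of Rxra and Lep were each lost in 9 of 13 alternatives. That of Insr was lost in 9 and its change turned to 0.27 in another, with peaks of −log10 q of at least 5. Dpp4, a marker of a fibroadipogenic subset, also lost covered length from QSC to ASC (log2 change -1.71, SE 0.25, limma adjusted p = 0.00956). It was the 1 of 10 progenitor markers called there, beside 5.25% of all genes called lower, and its call was lost in 6 of 13 alternatives.

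Most regulators had at least 1 annotated start in a peak of every library. Of the 17 regulators with an entry in the promoter table, 14 had at least 1 start in a peak of all 8 libraries, as had 8 of 14 lipid genes, 4 of 8 adipokine and receptor genes and 4 of 9 brown fat genes. Among all genes with an entry the share was 41.2%.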

How the data were processed

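Peak lists of 8 ATAC-seq libraries, 1 per library, were used; the submitters' processing notes name MACS2 2.1.1, Bowtie2 2.3.2, bedtools 2.26.0, SAMtools 1.3, Picard 2.9.2, Trimmomatic 0.36, bcl2fastq 2.19 and build mm10. Their settings, and any read shift after tagmentation, remain not given in the sources used here. A deposited peak has a fold over its local background, and a deposited −log10 p and −log10 q. These were used only within a library.

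Loci came from RefSeq on GRCm38.p6, whose primary chromosomes are those of mm10. Covered length was scaled to the mean library total and tested as log2(scaled bp + 500) with limma 3.58.1 in R 4.3.3. Means of 4 groups were fitted over all 8 libraries, and p-values were Benjamini-Hochberg adjusted over 27938 genes with at least 200 bp covered in at least 2 libraries. The steps were tested on simulated data with the same spread for every gene and changes larger than those reported here. That test does not tell how well smaller changes are found. Fold changes on this scale understate those of loci with little covered length. Peaks that overlapped or touched were merged into 141301 regions on chromosomes 1 to 19, X and Y, and a library held a region from 1 bp of overlap. Other tables were made with Python 3.11.15, numpy 2.4.6 and pandas 2.3.3.

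Nothing in the labels ties the replicates to separate mice or cultures. The p-values thus reflect spread among these libraries only, and that spread may be technical. The members and gene lists were chosen with earlier results of these data known. Named were all members, other list genes with an adjusted p under 0.05 (up to 6 per comparison), and per locus the region at the start and up to 3 others, group-specific ones first and then by mean fold. The Pparg regions described as chosen after their values were seen fall outside this rule. Region sequences are not shown.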

Additional observations from a re-analysis of the deposited data

How the results depend on the processing

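The 127 values of the 10 members in the knockdown comparison that could be recomputed under 13 alternatives per member gave 0 past the threshold, and 18 turned in sign. Fabp4 and Adipoq failed the filter with the gene body alone, and Fabp4 with peaks of −log10 q of at least 5. With peaks of −log10 q of at least 5 the log2 changes that turned were 0.17 at Pparg, 0.19 at Cebpa, -0.23 at Prdm16, -0.43 at Plin1 and 0.12 at Lpl, and Insr between QSC and ASC turned to 0.27. With equal list lengths they were 0.02 at Pparg, 0.12 at Cebpa, -0.05 at Prdm16, -0.06 at Plin1 and 0.03 at Lpl. With the gene body alone they were 0.09 at Cebpa, -0.05 at Plin1 and -0.06 at Pdgfra. Leaving out each replicate in turn gave values from -0.28 to 0.03 at Cebpa, -0.27 to 0.28 at Plin1 and -0.43 to 0.60 at Adipoq, which turned in sign. For the others they ran from -0.40 to -0.16 at Pparg, -0.41 to -0.11 at Cebpb, -0.36 to -0.08 at Cebpd, 0.10 to 0.48 at Prdm16, 0.00 to 0.70 at Fabp4, -0.31 to -0.12 at Lpl and 0.08 to 0.38 at Pdgfra. Both ends came from leaving out a LncMyod siRNA library, except at Cebpa and Cebpd, where they came from a control siRNA library. The cause was not tested.

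Genes called in the knockdown comparison numbered 6 in the report's analysis, 14 with the stricter peaks, 23 with equal lists, 38 without scaling, 10 with a pseudocount of 2000 bp, 110 with no filter, 50 with the gene body alone, 187 by peak number, 0 in the fit on 4 libraries, and 0 to 343 without 1 replicate (0 without either control siRNA replicate, 343 and 105 without LncMyod siRNA replicate 1 and 2). Between ASC and control siRNA, 1116 became 2066 with the stricter peaks, 2979 with equal lists (1438 higher and 1541 lower), 368 without scaling, 734 with no filter, 704 in the fit on 4 libraries, and 0 to 707 without 1 replicate (707 and 0 without ASC replicate 1 and 2, 0 and 1 without control siRNA replicate 1 and 2). Between QSC and ASC, 3580 became 1820 without scaling, 2042 with no filter, 1186 in the fit on 4 libraries, and 712 to 2997 without 1 replicate (926 and 712 without QSC replicate 1 and 2, 2997 and 1655 without ASC replicate 1 and 2). In the fits without 1 replicate the lone library is assumed to vary like the other groups. The member regions specific to LncMyod siRNA or control siRNA numbered 3 of 102, 0 of 43 with the stricter peaks (0.266% and 2.83% of all 76984 regions), and 6 to 22 of 102 without 1 replicate, where the shares over all regions were 3.29% to 11.1% for LncMyod siRNA and 1.83% to 8.47% for control siRNA.

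With the replicate number as a block, the calls were 0 in the knockdown comparison, 551 between ASC and control siRNA, and 3193 between QSC and ASC. The deviations of same-numbered libraries correlated at 0.022, 0.008 and 0.043 in these comparisons. Whether such libraries share more than a number is not stated in the labels and was not tested. Under the block the Lpl call between QSC and ASC had a limma adjusted p of 0.0536. The alternatives for regions held by QSC alone, for the third Pparg start, and for genes outside the member list were chosen after seeing the data. QSC alone held 6 of 43 member regions with the stricter peaks (14% beside 6.15% of all regions), 6 of 62 with equal lists (9.68% beside 7.58%) and 6 of 102 with at least 50% overlap (5.88% beside 6.2%), in place of 7 of 102 (6.86% beside 5.18%).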
